A study of Mus musculus with 57 samples.

Results

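In mouse epiblast stem cells (EpiSCs), 1368 regions of chromatin that were closed at 0 h were open after 48 h of the GSK3 inhibitor CHIR99021 (CHIR, labelled Chiron) and carried H3K27ac at 24 h. These newly opened enhancers were 3.60% of the 38032 regions that ATAC-seq listed as open at 48 h (exact Poisson 95% interval of the count 1296 to 1442), in a series with 591931 listed regions over 32 libraries. They were chosen from the peak lists of wild-type (wt) EpiSCs. A region had to be in the ATAC-seq list at 48 h and overlap H3K27ac in both replicates at 24 h of CHIR by at least 1 bp. It could overlap no region of the 0 h lists of ATAC-seq (wt), H3K27ac (wt) and H3K4me3 (EpiSCs without Wnt3, labelled Wnt3KO).

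Enhancers are stretches of DNA that raise the transcription of genes at a distance. An active one is usually bare of nucleosomes, which ATAC-seq detects, and is flanked by nucleosomes with acetylated lysine 27 of histone H3 (H3K27ac). Promoters carry H3K4me3 as well, and genes held silent by Polycomb carry H3K27me3 and Ring1b. In the gastrulating embryo, Wnt signals from the posterior side stabilise β-catenin, and the primitive streak, mesoderm and the first Hox genes follow there. CHIR stabilises β-catenin inside the cell.

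The EpiSCs came from explants of E6.0 embryos and were grown with Activin A, Fgf-basic and IWP2 (2 µM), which blocks Wnt secretion. For stimulation, IWP2 was withdrawn and CHIR (3 µM) was added for 6 to 72 h, or Wnt3a protein (125 ng/mL) for 5 h. The wt EpiSC groups used here were ATAC-seq at 48 h of CHIR (1 library), H3K27ac at 24 h of CHIR (2 libraries), and 1 library each of ATAC-seq and H3K27ac at 0 h in IWP2. The Wnt3KO groups were H3K27ac at 0 h and after 6, 12 and 72 h of CHIR, H3K4me3 at the same times, H3K27me3 at those times and after Wnt3a, and Ring1b at 72 h of CHIR, after Wnt3a and at 0 h. Each had 1 library, except H3K27me3 and Ring1b at 0 h with 2. The labels give no stimulation for Wnt3KO H3K27ac and H3K4me3 at 0 h and do not say how the knockout line was made. Embryos (wt) at E6.0 (2 libraries) and E7.2 (2 libraries), and the posterior part at E7.5 (1 library), were profiled by ATAC-seq without treatment, and 2 input libraries of chromatin had no antibody. No label says that replicates came from separate cultures or litters. As a check of the cell type, H3K27ac at 0 h in wt EpiSCs had 3 regions within 5 kb of the start of Pou5f1, 7 at Sox2 and 3 at Nanog, the genes of the pluripotency network, 2 at Otx2 and 4 at Foxd3, but 0 at Fgf5 and Pou3f1. The streak and mesoderm genes T, Mixl1, Eomes, Tbx6, Msgn1, Mesp1 and Evx1 had 0, while Fgf8, also expressed in the streak, had 1. Of the other loci named below, Axin2 and Lef1 had 1 each, HoxA 4 and HoxB 2, and Sp5, Nkd1, Cdx2, Wnt3, Wnt3a, HoxC and HoxD 0.

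The lists were made in 7 folders, read from the peak names. ATAC-seq of EpiSCs at 48 h and the second replicates of E6.0 and E7.2 share a folder, while ATAC-seq of EpiSCs at 0 h, the first replicates and E7.5 share another. Read counts are not part of the lists. Depth is therefore unknown, and a region that is not listed may have been missed. Length differs between lists as well. H3K27ac of wt EpiSCs has 29056 and 27422 regions at 24 h and 14453 at 0 h, and ATAC-seq of EpiSCs has 38032 regions at 48 h and 41309 at 0 h. The part of folder and list length in the choice of the regions was not tested, except that lists of equal length gave 641 regions in place of 1368.

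Of the 38032 regions open at 48 h, 10443 (27.5%) were not listed at 0 h. H3K27ac at 24 h covered 1913 of these in the first replicate, 1707 in the second and 1507 in both. H3K27ac at 0 h removed 81 and H3K4me3 a further 58. A set of 588 regions met every other term but had H3K27ac in only 1 replicate. Close to the limits, the nearest ATAC-seq region at 0 h lay 1 bp away, and 170 newly opened enhancers (12.4%) lay within 1 kb of one. Among the regions that only the 0 h ATAC-seq list left out, the smallest overlap was 8 bp and 10 overlapped by less than 50 bp.

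Newly opened enhancers were of moderate strength and mostly far from H3K4me3 regions of 0 h. Their median length was 419 bp, against 471 bp for all regions at 48 h. Their ATAC-seq fold enrichment at 48 h, the ratio of signal to local background at the summit as the authors' peak caller gave it, ranged from 2.58 to 54.0 with a median of 7.51, against a median of 9.48 for all regions. The fold of the H3K27ac region had medians of 5.35 and 5.34 in the 2 replicates. These values chose the regions and are given as a description. The distance to the nearest H3K4me3 region of the 0 h list had a median of 50.9 kb (quartiles 16.9 and 121.1 kb). Of the enhancers 82.3% lay over 10 kb away, against 48.8% of all regions at 48 h. In the 2 other sets described below it was 85.4% (newly open without H3K27ac) and 80.0% (open before and gaining H3K27ac). Promoters themselves were not annotated. Regions with H3K4me3 at 0 h were left out by the rule, which lengthens that distance.

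H3K27ac often lay beside the open site. The ATAC-seq summit was inside the H3K27ac region for 801 of the 1368 (58.6%) in the first replicate and 730 (53.4%) in the second. The summits of the 2 assays were a median of 342.5 and 344 bp apart. The 1368 enhancers fell in 1320 and 1323 distinct H3K27ac regions, of which 47 and 44 held at least 2 of them.

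These enhancers were set against a pair of other sets of 48 h regions. A set of 8214 regions (21.6% of all) was newly open at 48 h without H3K27ac in either replicate at 24 h, and without the 0 h marks. A set of 2375 (6.24%) was already open at 0 h and gained H3K27ac in both replicates at 24 h, without either mark at 0 h.

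Most newly opened enhancers were also open in embryos, 1113 (81.4%) in at least 1 of 5 libraries, against 87.4% of all 48 h regions and 67.8% of all newly open ones. In the lists as deposited, E6.0 listed 435 of the 1368 (31.8%, Wilson 95% interval 29.4 to 34.3) in the first replicate and 574 (42.0%, 39.4 to 44.6) in the second. E7.2 listed 492 (36.0%, 33.5 to 38.5) and 979 (71.6%, 69.1 to 73.9). The E7.5 posterior part listed 764 (55.8%, 53.2 to 58.5). Of all 38032 regions at 48 h, these lists held 67.2% and 70.6% (E6.0), 57.3% and 79.5% (E7.2) and 65.5% (E7.5). Of all 10443 newly open regions, the enhancers included, they held 22.7% and 26.8% (E6.0), 17.5% and 50.1% (E7.2) and 43.7% (E7.5). The enhancers stood below all 48 h regions and above all newly open ones in each of the 5 libraries. The Wilson intervals cover counting error only.

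The E7.2 replicates differed more from each other than the stages did. The E7.2 mean was 53.8 ± 25.2% and the E6.0 mean 36.9 ± 7.18% (SD, n = 2 each), a difference of 16.9 percentage points with an exact two-sided permutation p of 0.667. The smallest p that 2 against 2 libraries allow is 0.333, so the design cannot pass 0.05. Within the folder of the first replicates, E7.2 was 4.17 percentage points above E6.0, and within the folder of the second replicates it was 29.6 points above. The E7.2 lists hold 33881 and 72433 regions and the E6.0 lists 57569 and 61933. Without the long E7.2 list the difference was -0.914 points.

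When each embryo list was cut to its 33881 strongest regions, the length of the shortest, the 2 replicates of each stage came together. E6.0 then listed 220 newly opened enhancers (16.1%, 14.2 to 18.1) and 292 (21.3%, 19.3 to 23.6). E7.2 listed 492 (36.0%, 33.5 to 38.5) and 515 (37.6%, 35.1 to 40.2). E7.5 listed 653 (47.7%, 45.1 to 50.4). The cut lists held 55.2% and 55.8% (E6.0), 57.3% and 58.9% (E7.2) and 59.0% (E7.5) of all 48 h regions. The values of the enhancers thus did not overlap between stages. Neither did those of all 48 h regions, nor those of newly open regions without H3K27ac. For the enhancers the difference of E7.2 to E6.0 was 18.1 points (19.9 and 16.3 within the folders), with an exact two-sided permutation p of 0.333, the smallest possible. In the same cut lists it was 5.65 points for newly open regions without H3K27ac, 8.53 for regions open before and gaining H3K27ac, and 2.58 for all 48 h regions. The difference between these values was not tested.

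**Figure D1:**
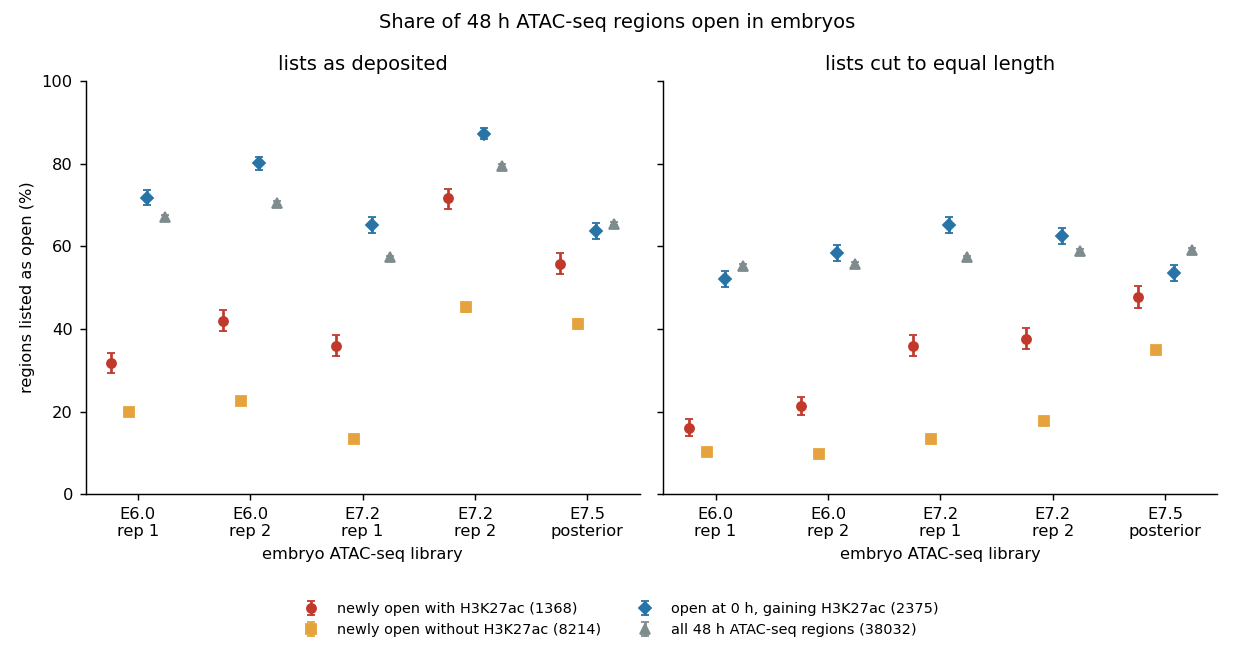
Share of 4 sets of 48 h ATAC-seq regions (y axis, percent, with Wilson 95% intervals) that each of the 5 embryo ATAC-seq libraries lists (x axis), with the lists as deposited on the left and cut to 33881 regions on the right. On the right, newly open regions with H3K27ac (circles) have values of 16.1% and 21.3% (E6.0), 36.0% and 37.6% (E7.2) and 47.7% (E7.5), while all 48 h regions (triangles) stay between 55.2% and 59.0%.

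The combinations of stages show where the enhancers were listed. With the deposited lists, 255 (18.6%) were in no embryo library, against 12.6% of all 48 h regions, 35.5% of newly open regions without H3K27ac and 7.2% of regions open before and gaining H3K27ac. All 5 libraries listed 237 (17.3%), against 48.3% of all regions. Neither E6.0 library listed 733 (53.6%), against 26.1% of all regions and 68.3% of all newly open ones. At E7.5 and in neither E6.0 library were 344 of the 1368 (25.1%), against 9.19% of all regions and 26.8% of all newly open ones. Both E7.2 libraries and neither E6.0 library listed 70 (5.12%), against 1.16% of all regions. The reverse, both E6.0 and neither E7.2 library, held for 11 (0.804%), against 1.06%. In the cut lists these 2 patterns held for 143 (10.5%) and 7 (0.512%), against 2.60% and 1.27% of all 48 h regions. Newly open regions without H3K27ac had 2.26% and 0.974% in the deposited lists, and 3.25% and 0.718% in the cut lists. Regions open before and gaining H3K27ac had 1.68% and 1.18% in the deposited lists, and 6.15% and 1.26% in the cut lists.

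The presence of an enhancer in embryos went with its ATAC-seq strength in EpiSCs. Ranked by ATAC-seq fold at 48 h and split into 4 groups of 342, low to high, 31.6%, 45.9%, 64.3% and 81.6% were listed at E7.5. At E6.0 the groups ran from 28.4% to 38.0% in the first replicate and from 36.5% to 51.5% in the second. At E7.2 they ran from 21.3% to 56.7% and from 54.4% to 92.1%. The spread between groups was thus narrower at E6.0 than at E7.2 and E7.5. Split by the H3K27ac fold instead, the E7.5 share was 55.0%, 57.0%, 57.3% and 54.1%, with no order. The group with the highest H3K27ac fold had the highest share in the other 4 libraries, 36.3% and 48.8% at E6.0, against 30.4% and 37.1% in the lowest group, and 45.9% and 75.7% at E7.2, against 30.7% and 70.2%. Split by the distance to H3K4me3 at 0 h, the E7.5 share was 45.9%, 52.6%, 57.0% and 67.8% from near to far. The second E6.0 replicate ran the other way, with 48.5%, 44.2%, 38.3% and 36.8%. The nearest and farthest groups had 34.2% and 31.0% in the first E6.0 replicate, and 38.0% with 38.6%, and 69.6% with 76.3%, in the E7.2 replicates. Split by length, short to long, the E7.5 share was 33.9%, 44.4%, 67.8% and 77.2%. Length and ATAC-seq fold were not separated.

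**Figure D2:**
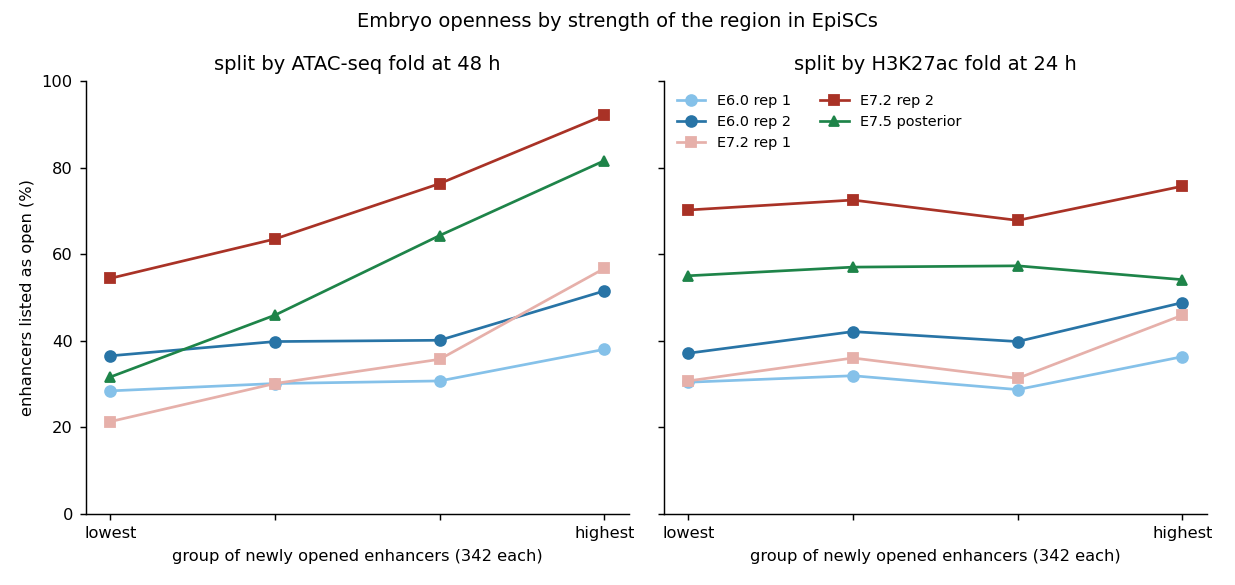
Share of newly opened enhancers listed in each embryo ATAC-seq library (y axis, percent) in 4 groups of 342 enhancers (x axis), ranked by the ATAC-seq fold at 48 h on the left and by the H3K27ac fold at 24 h on the right. The E7.5 line climbs from 31.6% to 81.6% on the left and stays between 54.1% and 57.3% on the right.

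At like ATAC-seq fold, newly open regions with H3K27ac were listed more often than those without it in every embryo library. The limits between the 4 groups of enhancers split both sets into 4 ranges of fold. The outer ranges had no outer limit, and folds ran from 2.58 to 54.0 for the enhancers and from 1.25 to 174.7 without H3K27ac. From low to high, the enhancers had 31.6%, 45.9%, 64.3% and 81.6% at E7.5, and the set without H3K27ac 30.9%, 38.5%, 52.9% and 76.2%. In the first E6.0 replicate the enhancers had 28.4%, 30.1%, 30.7% and 38.0%, and the set without H3K27ac 19.3%, 19.4%, 20.4% and 26.0%. In the second, the enhancers had 36.5%, 39.8%, 40.1% and 51.5%, and the other set 21.6%, 22.1%, 24.1% and 25.8%. In the first E7.2 replicate the enhancers had 21.3%, 30.1%, 35.7% and 56.7%, and the other set 11.4%, 12.0%, 15.0% and 26.8%. In the second E7.2 replicate the enhancers had 54.4%, 63.5%, 76.3% and 92.1%, and the other set 36.5%, 42.6%, 56.3% and 72.1%. The enhancers were higher in all 4 ranges in all 5 libraries. No test of this contrast was run, since regions of 1 library are not replicates. Length was not matched within the ranges. Its median was 419 bp for the enhancers and 248 bp for the set without H3K27ac, and an overlap was called from 1 bp. The part of length in the contrast was not tested. Regions open before and gaining H3K27ac had 35.8%, 41.1%, 63.5% and 84.5% at E7.5 in these ranges. In each E6.0 and E7.2 library they stood above the enhancers in all 4 ranges.

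The strongest openings were open in later embryos. The 5 enhancers with the highest ATAC-seq fold lay at chr15:93802824-93804219 (fold 54.0), chr9:71682658-71683905 (50.7), chr15:93741281-93742156 (41.7), chr13:64053040-64053899 (40.3) and chr15:55272266-55272940 (39.2), all coordinates in mm9. They lay 62.8 to 375.8 kb from H3K4me3 at 0 h. All 5 were listed at E7.5 and in the second E7.2 replicate, 2 also in the first, and none in either E6.0 replicate.

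The strongest acetylation fell elsewhere. The highest H3K27ac folds belonged to chr4:11082111-11082452 (26.3 and 26.9 in the 2 replicates), chr9:97003992-97004463 (22.1 and 20.4), chr11:53341909-53342313 (18.3 and 18.8), and chr14:58152127-58152276 with chr14:58153798-58154157, which share an H3K27ac region (18.2 and 19.3). Their ATAC-seq folds were 4.99 to 10.5. None was listed at E7.5, and chr14:58153798-58154157 was the only of the 5 in both replicates of E6.0 and of E7.2. They lay within 8.88 kb of H3K4me3 at 0 h, the nearest 0.540 kb away.

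In Wnt3KO EpiSCs, few of the enhancers entered the H3K27ac lists, and the number was higher at each later time. At 0 h 10 were listed (0.731%, 0.398 to 1.34), at 6 h 22 (1.61%), at 12 h 27 (1.97%) and at 72 h 38 (2.78%, 2.03 to 3.79). Of all 48 h regions, the same lists held 24.2%, 19.3%, 22.4% and 21.5%. These include regions with H3K27ac or H3K4me3 at 0 h, which the rule left out. Of newly open regions without H3K27ac at 24 h, the lists held 0.0852%, 0.110%, 0.0122% and 0.134%. The share of the enhancers was 2.05 percentage points higher at 72 h than at 0 h, from lists of 10161 and 12135 regions in the same folder, while regions open before and gaining H3K27ac had 5.60% at 72 h and 8.51% at 0 h. Another folder holds the lists of 6 h and 12 h. With 1 library per time there was no test.

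Few enhancers were listed for H3K27ac at more than 1 time. In all, 80 (5.85%) were listed at 1 time or more, against 30.7% of all 48 h regions. The rule left out H3K27ac and H3K4me3 at 0 h, so all 48 h regions are not a like background. The sets with the same exclusions had 0.341% (newly open without H3K27ac) and 18.9% (open before and gaining H3K27ac). Of these 80, 64 (80.0%) were listed at a single time, against 71.2% of the marked regions in the set open before and gaining H3K27ac and 21.6% of the marked regions among all 48 h regions. The single time was 0 h for 5, 6 h for 13, 12 h for 15 and 72 h for 31. Both 6 and 12 h listed 7 and both 12 and 72 h 4, and 0 were listed at every time. The listed enhancers stood low in these lists, at median percentiles of fold of 15.9 to 27.5, where all 48 h regions stood at 56.7 to 59.9. Regions open before and gaining H3K27ac stood low as well, at 16.6 to 33.8. Newly open regions without H3K27ac stood at 11.4, 49.6 and 21.1 at 0, 6 and 72 h, from 7, 9 and 11 regions. The wt lists at 24 h that define the enhancers differ from the Wnt3KO lists in genotype, time, folder and length, and these cannot be told apart. Of the 38 enhancers listed at 72 h, 25 (65.8%, 49.9 to 78.8) were open at E7.5, against 739 of the other 1330 (55.6%, 52.9 to 58.2), and the intervals overlap. The strongest opening of the 38 was chr9:71682658-71683905, and next came chr1:81740915-81741903 with a fold of 38.5, open at E7.5 and in the second E7.2 replicate and in neither E6.0 replicate.

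H3K4me3, the promoter mark, was listed at few of the enhancers, and at more of them at 72 h. The Wnt3KO lists held 4 (0.292%) at 6 h, 11 (0.804%) at 12 h and 41 (3.00%, 2.22 to 4.04) at 72 h. Of all 48 h regions they held 36.3%, 37.0% and 40.2%, but these include regions with H3K4me3 at 0 h, which the rule left out. Of the sets with the same exclusions, newly open regions without H3K27ac had 0.219%, 0.256% and 0.670%. Regions open before and gaining H3K27ac had 1.09%, 1.89% and 7.41%. The share was thus highest at 72 h in these sets too. H3K4me3 at 0 h was 0 by the rule. The lists of 6 and 12 h, with median lengths of 930 and 936 bp, share a folder, and the list of 72 h, with 1230 bp, comes from another, so time and folder cannot be told apart, and 1 library per time allows no test. The 4 of 6 h were all listed at 12 and 72 h too, and 31 were listed at 72 h alone. At 72 h, 27 of the 41 lay within 5 kb of a H3K4me3 region of 0 h, as 142 of the 1368 (10.4%) did, and 13 lay over 10 kb from one. Leaving out enhancers within 1 kb of a 0 h region lowered the 72 h share to 1.61%. In the 4 groups of ATAC-seq fold, low to high, 6.73%, 3.22%, 1.46% and 0.585% were listed at 72 h, which is the opposite order to that of the embryo lists. Only 3 enhancers had both H3K4me3 and H3K27ac at 72 h.

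**Figure D3:**
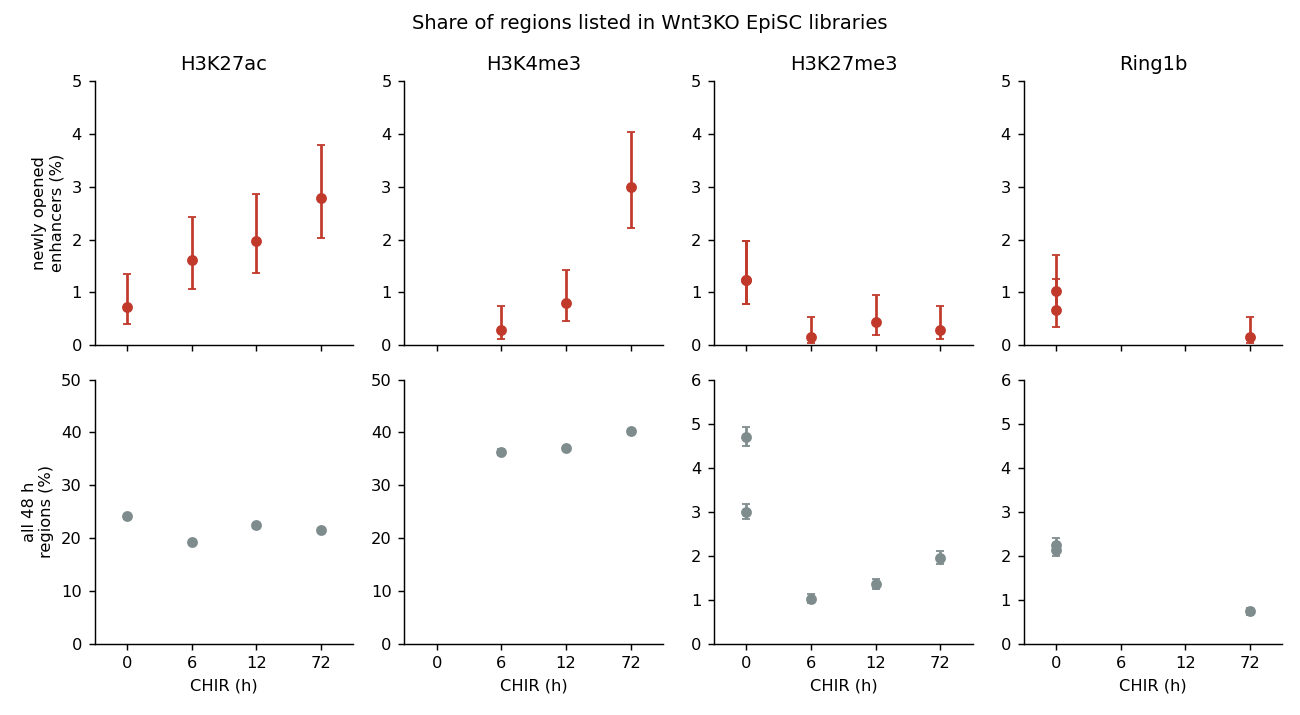
Share of the 1368 newly opened enhancers (upper row) and of all 38032 regions open at 48 h (lower row) listed for 4 marks in Wnt3KO EpiSCs (y axes, percent, with Wilson 95% intervals; scales differ) by hours of CHIR (x axis; each point is 1 library). The enhancers go up to 2.78% for H3K27ac and 3.00% for H3K4me3 at 72 h, and H3K27me3 and Ring1b stand at 1.24% or less throughout.

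Polycomb marks were listed at few enhancers before stimulation. H3K27me3 at 0 h listed 17 (1.24%) in each replicate, 12 of them in both, against 2.99% and 4.70% of all 48 h regions, 0.779% and 1.01% of newly open regions without H3K27ac, and 0.589% and 0.547% of regions open before and gaining H3K27ac. Ring1b at 0 h listed 14 (1.02%) and 9 (0.658%), 6 in both, against 2.14% and 2.25% of all regions, 0.657% and 0.597% of newly open regions without H3K27ac, and 0.632% and 0.337% of regions open before and gaining H3K27ac. The enhancers thus stood below all 48 h regions and above the other sets, whose Wilson intervals overlap theirs. All 48 h regions include those with H3K4me3 at 0 h, which the rule left out, so they are not a like background. Among all 48 h regions, 2218 had a Polycomb mark at 0 h, and 1813 of these had H3K4me3 at 72 h. The other sets leave out H3K4me3 at 0 h as the enhancers do. After CHIR, H3K27me3 listed 2 at 6 h, 6 at 12 h and 4 at 72 h, and Ring1b 2 at 72 h. After 5 h of Wnt3a, H3K27me3 listed 8 and Ring1b 11. The background of these lists was 1.01%, 1.36% and 1.95% for H3K27me3, 0.734% for Ring1b at 72 h, and 0.689% and 3.66% after Wnt3a.

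Of the 41 enhancers with H3K4me3 at 72 h, 13 (31.7%) had a Polycomb mark at 0 h, against 11.9% of all 48 h regions with H3K4me3 at 72 h. The same share was 43.6% among newly open regions without H3K27ac and 3.41% among regions open before and gaining H3K27ac. Any of the 4 Polycomb lists at 0 h held 29 enhancers (2.12%). These 13 were part of the 29, and 2 of the 29 had H3K27ac at 72 h. The same lists held 5.83% of all 48 h regions. They held 1.30% of newly open regions without H3K27ac and 1.05% of regions open before and gaining H3K27ac. The inputs listed 4 (0.292%) and 5 (0.365%) enhancers, against 0.281% and 0.484% of all regions. All 5 were among the 29, and 2 of the 2 with Ring1b at 72 h, 3 of the 4 with H3K27me3 at 72 h and 5 of the 8 with H3K27me3 after Wnt3a were input regions. None of the 41 with H3K4me3 at 72 h overlapped an input.

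Near Hox clusters and genes of known Wnt response, a higher share of the open regions were newly opened enhancers than over the genome. The positions of 26 genes and Hox clusters in mm9 come from general knowledge and were kept only where an H3K4me3 region lay within 2 kb, so distances are good to about 2 kb. Within 100 kb of the 4 Hox clusters, which set position along the body axis, 14 of 118 regions open at 48 h (11.9%) were newly opened enhancers. At 9 Wnt-responsive or Wnt ligand genes it was 11 of 113 (9.73%), at 6 streak and mesoderm genes 3 of 59 (5.08%), and at 7 pluripotency and epiblast genes 1 of 63 (1.59%), against 3.60% of all 38032. Newly open regions of any kind were 60 of the 118, 43 of the 113, 11 of the 59 and 14 of the 63, against 27.5% of all 38032. At the Hox clusters and Wnt genes, newly open regions as a whole were thus also more common than over the genome. These windows were chosen with results of these data known, and no test was run on them. The 28 distinct enhancers were listed as open 10 and 17 times (E6.0), 14 and 24 times (E7.2) and 16 times (E7.5).

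All 4 Hox clusters had such enhancers. HoxA had 6, which included the longest run of the whole set, 5 enhancers over 94.2 kb at chr6:52056112-52150312 on the side of the cluster that holds the genes activated earliest. Inside the cluster, chr6:52126772-52127476 (fold 11.2) had Ring1b in both 0 h replicates and H3K4me3 at 12 and 72 h, and was open in both E6.0 libraries, the second E7.2 library and at E7.5. The enhancer chr6:52149506-52150312, also inside, was open at E7.5 and in no other embryo library. Outside it, chr6:52065498-52066612 (fold 17.8) was open in both E7.2 libraries and the second E6.0 library, and chr6:52056112-52056530 (14.1) in the second E7.2 library alone. The sixth, chr6:52261140-52261738, lay 2.16 kb from Evx1, a homeobox gene of the streak, and 1.56 kb from an H3K4me3 region of 0 h. It had H3K4me3 at 6, 12 and 72 h, H3K27me3 in 1 of 2 libraries at 0 h, and open chromatin in all 5 embryo libraries. An enhancer and a promoter cannot be told apart for it.

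HoxB had 4 enhancers inside the cluster, HoxD 3 and HoxC 1 beside it. In HoxB, chr11:96133014-96134043 (fold 7.11) and chr11:96211184-96211783 (9.94) had H3K4me3 at 12 and 72 h and were open at E7.5. The other 2, chr11:96212773-96212934 and chr11:96231798-96232033, had folds of 3.19 and 4.00 and were not open at E7.5. They lay 1.25 and 15.4 kb from an H3K4me3 region of 0 h. All 3 of HoxD, between chr2:74559040-74559587 and chr2:74584903-74585408, were open at E7.5 and in the second E7.2 library. The last of them had H3K4me3 at 72 h, and H3K27me3 and Ring1b in 1 of 2 libraries at 0 h. The HoxC enhancer, chr15:102872733-102873136, was open at E7.5 and in the second E7.2 library.

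Among Wnt targets, Sp5, which encodes a transcription factor induced directly by β-catenin, had 3 enhancers. The nearest, chr2:70311264-70311473, lay 1.51 kb from the start and 0.775 kb from an H3K4me3 region of 0 h. It was listed for H3K27me3 and Ring1b in both replicates at 0 h, and after CHIR for H3K4me3 at 6, 12 and 72 h and H3K27ac at 72 h, with neither Polycomb mark at 72 h. It was open in both E6.0 and both E7.2 libraries and not at E7.5. As positions are good to about 2 kb, an enhancer and a promoter cannot be told apart for this region. The others lay 18.3 and 30.6 kb away at chr2:70294267-70294681, open in all 5 embryo libraries, and chr2:70281888-70282361, open in both E7.2 and the second E6.0 library.

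Feedback inhibitors of the Wnt pathway had them too. Axin2, a scaffold of the complex that destroys β-catenin, had chr11:108759057-108759474, 22.2 kb away and open in 4 embryo libraries, both of E7.2 and E7.5 among them. Nkd1, which binds Dishevelled, had 3 at 49.1, 65.3 and 69.8 kb. The enhancer chr8:90979118-90979735 at 65.3 kb was listed for H3K27ac in Wnt3KO EpiSCs at 12 and 72 h and was open in all 5 embryo libraries. It lay 0.431 kb from an H3K4me3 region of 0 h, so an enhancer and a promoter cannot be told apart for it. Its neighbour chr8:90974805-90975195, which lay 2.55 kb from such a region, was listed at 12 h.

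Lef1, which encodes a DNA-binding partner of β-catenin, had chr3:130820884-130821910, 7.38 kb away, with H3K27ac folds of 12.1 in both wt replicates. Fgf8, a growth factor of the streak, had chr19:45809098-45810317 (ATAC-seq fold 15.5) at 7.18 kb, open in all 5 embryo libraries, and chr19:45807709-45808396 in the same H3K27ac region. T, the mesoderm factor Brachyury, had chr17:8589172-8589707 at 37.6 kb (fold 11.8), open in the second replicates of E6.0 and E7.2 and not at E7.5. Cdx2, Wnt3 and Wnt3a had none within 100 kb.

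Of the mesoderm genes, Msgn1, a bHLH factor of presomitic mesoderm, had an enhancer 0.640 kb from its start, chr12:11215541-11216134 (fold 9.95), with H3K4me3 at 72 h. Msgn1 had no H3K4me3 region within 2 kb of its start at 0 h, so an enhancer and a promoter cannot be told apart here. Tbx6, the T-box factor of the same tissue, had chr7:133928650-133929153 (fold 10.4) at 3.65 kb, open at E7.5 and in the second replicates of E6.0 and E7.2. Mesp1, Mixl1 and Eomes had none. At Sox2 an enhancer 16.2 kb away, chr3:34565117-34565933, was open in no embryo library. It lay 0.798 kb from an H3K4me3 region of 0 h, so an enhancer and a promoter cannot be told apart for it.

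**Figure D4:**
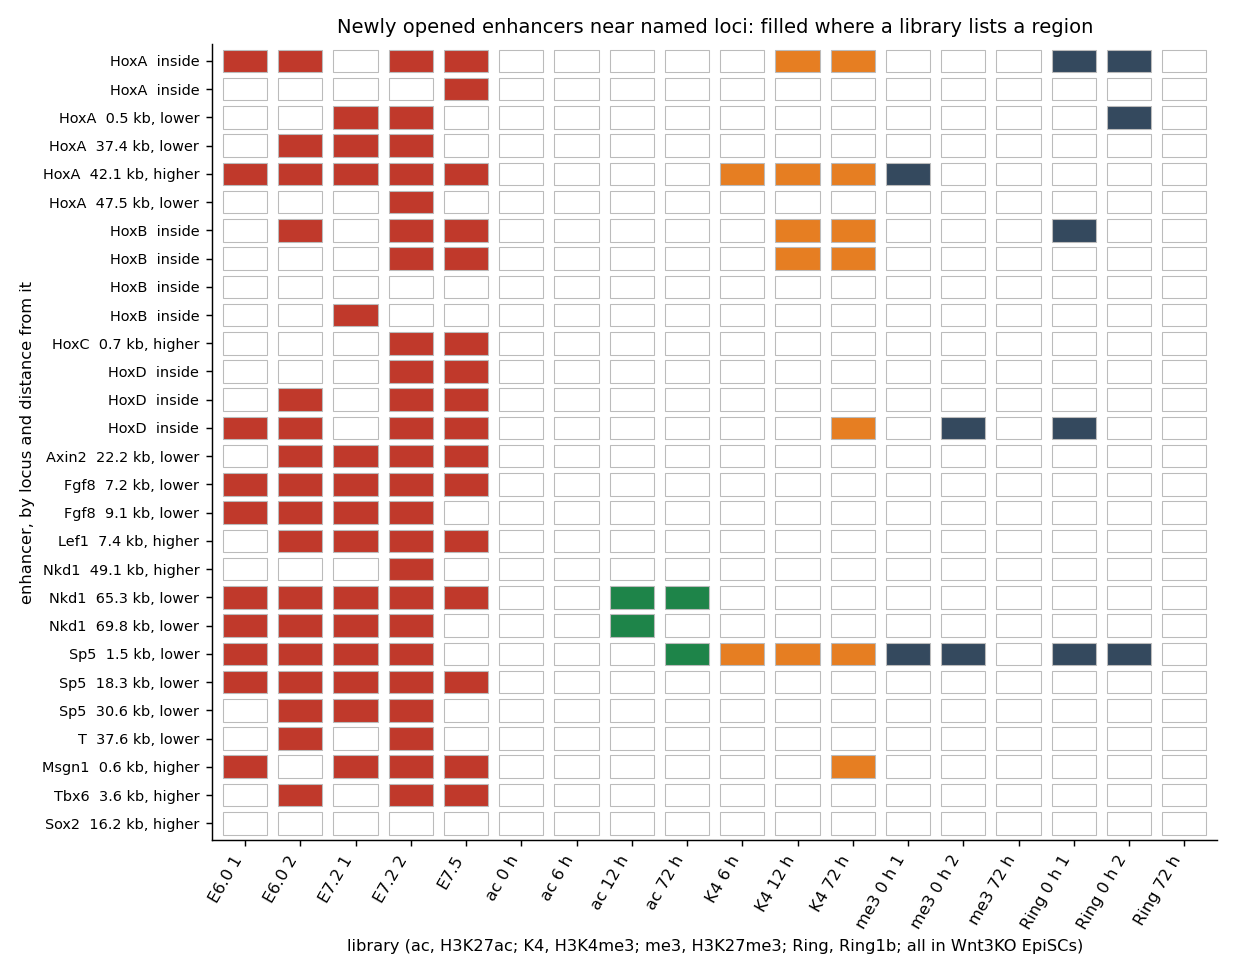
Grid of the 28 newly opened enhancers within 100 kb of a named locus (rows, with their distance from the locus in kb and whether they lie at lower or higher coordinates) and 18 libraries (columns), filled where the library lists a region. Open chromatin fills most rows at E7.2 replicate 2 (24 of 28), H3K4me3 appears at 72 h in 7 rows, and H3K27ac in Wnt3KO EpiSCs at 72 h in 2.

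Most of the enhancers lay far from each other. Linked at gaps of up to 50 kb, 100 of the 1368 (7.31%) lay in 31 chains of 3 or more, and 998 (73.0%) were alone. The median gap to the next enhancer was 233.4 kb. Chains hold 22.2% of newly open regions without H3K27ac and 8.59% of regions open before and gaining H3K27ac, but those sets are larger, which closes the gaps. All 48 h regions, the largest set, had 72.8% in chains. Another enhancer lay within 5 kb of 181 (13.2%), against 11.7% and 9.18% in those sets, 15.9% of all newly open regions and 33.6% of all 48 h regions.

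To take out the number of regions, the 10 nearest 48 h regions of each enhancer were examined. On average 6.79% of these were newly opened enhancers themselves, and 622 (45.5%) had at least 1 among the 10. Around newly open regions without H3K27ac the mean was 4.23%, around regions open before and gaining H3K27ac 5.12%, and around all 48 h regions 3.73%. With neighbours nearer than 10 kb left out, so that openings under 1 H3K27ac region do not count, the means were 5.58%, 4.21% and 4.65% in that order, against 3.60% of all regions. Regions open before and gaining H3K27ac made up 8.97% of the 10 nearest regions of an enhancer, against 6.24% of all, and newly open regions without H3K27ac 24.1%, against 21.6%. No test was run on these neighbour shares.

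**Figure D5:**
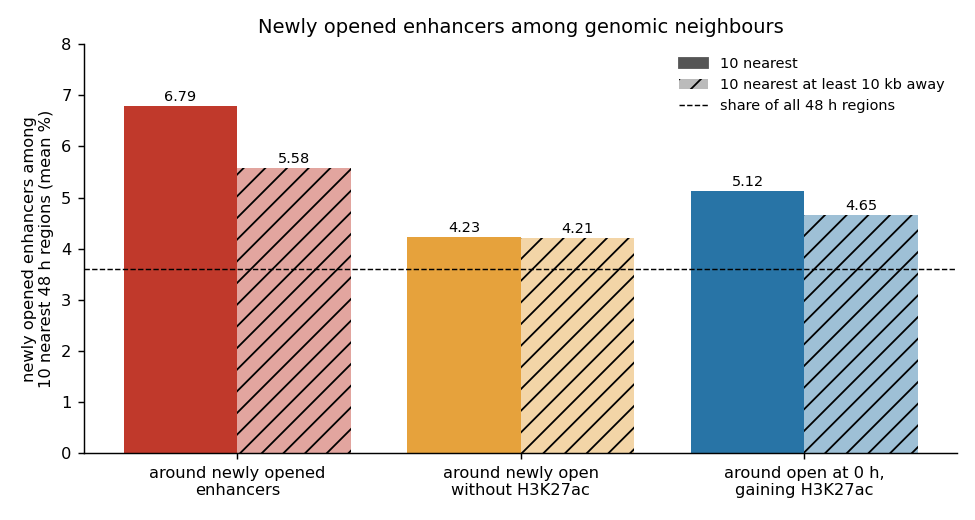
Mean share of newly opened enhancers (y axis, percent) among the 10 nearest 48 h regions of 3 sets of regions (x axis), for all neighbours (solid bars) and for neighbours at least 10 kb away (hatched bars), with the share of all 48 h regions as a dashed line at 3.60%. The bars around the enhancers are the tallest, at 6.79% and 5.58%.

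Chains differed in their embryo pattern. Of the 31, 25 had 3 members, 5 had 4 and 1, at HoxA, had 5. In 9 chains every member was open at E7.5, and in 3 no member was open in any embryo library. In chr9:69516360-69536115, all 3 members (folds 13.8 to 28.1) were open in all 5 embryo libraries. A chain of 4 on chromosome 18 over 23.4 kb had all 4 open at E7.5, 1 in each E6.0 library, and H3K4me3 at 72 h in 2. The chain chr5:114034378-114078379 spread over 44.0 kb with 4 members, of which 1 was open at E7.5. The chain chr14:58148393-58173817 spread over 25.4 kb with 4 members of folds 4.99 to 8.20, none open at E7.5, and holds the pair named above for its H3K27ac. The chain chr9:43061023-43079241 over 18.2 kb had 1 of its 4 members open at E7.5. Chains at HoxB, HoxD and Sp5 had 3 members each.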

How the data were processed

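ATAC-seq, ChIP-seq and input peak lists of 32 of the 57 samples were used, 1 list per library, in mm9 coordinates. The other 25 samples were not analysed here. The submitters' processing notes name Bowtie 1.1.0, Bowtie2 2.1.0, cutadapt 1.8.1, SAMtools 0.1.19 and MACS2 2.1.0. Fold enrichment in the deposited lists is the ratio of signal to local background from the authors' peak caller, and the −log10 p and −log10 q values are its own as well. The deposited score was not used. Depth is unknown.

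Regions were called overlapping from 1 bp. Overlaps, chains (gaps of up to 50 kb, at least 3 regions) and neighbours were computed in Python 3.11.15 with numpy 2.4.6 and pandas 2.3.3, and checked on simulated data. Intervals are Wilson or exact Poisson at 95% (SciPy 1.17.1) and cover counting error only. E7.2 and E6.0 were compared by an exact permutation test over libraries. Named regions were the 5 with the highest ATAC-seq fold, the 5 with the highest H3K27ac fold (lower of 2 replicates), the 5 longest chains and those within 100 kb of listed loci. The enhancers at chr1:81740915-81741903, chr9:69516360-69536115 and the chain counts by stage were chosen after their values were seen. Of 27 listed loci, 26 had H3K4me3 within 2 kb and were used. The regions, sets and lists were chosen with earlier results of these data known.

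Groups follow the labels. Peak names of the embryo lists carry other stage names, which were not used. Wild-type H3K4me3 libraries, of which there are 2, have contradictory labels and entered no comparison. Alternatives were an overlap of 50%, a −log10 q of at least 5, each H3K27ac replicate alone, exclusion within 1 kb, lists of equal length, each replicate left out, a replicate block and chain links of 25 and 100 kb. Equal lengths for the lists of the rule, leaving out input regions and the limit of 10 kb on neighbours were added after the data were seen.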

Additional observations from a re-analysis of the deposited data

Results flagged for a closer look

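The pair of wild-type H3K4me3 libraries whose labels contradict each other about stimulation entered no comparison, and both list newly opened enhancers. Their lists hold 17147 and 16798 regions. The input lists, with 0.292% and 0.365% of the enhancers, hold 253 and 424 regions, so these levels are not alike. The first library listed 32 of the 1368 (2.34%, Wilson 95% interval 1.66 to 3.28, against 43.2% of all 48 h regions) and the second 59 (4.31%, 3.36 to 5.52, against 41.6%). Both listed 28 of the enhancers. Of newly open regions without H3K27ac the 2 libraries listed 0.828% and 1.03%, and of regions open before and gaining H3K27ac 14.7% and 14.1%. Of the 41 enhancers with H3K4me3 at 72 h in Wnt3KO EpiSCs, the first library listed 13 and the second 32. Their state of stimulation is not read from these values.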

How the results depend on the processing

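Of 73 recomputed values, 60 counted as unchanged, 12 moved further and 1 changed direction. Unchanged meant within the counting interval, the replicate spread or 1.5 times the count. For the difference of E7.2 to E6.0 it meant only the same sign, whatever the size. The count of 1368 enhancers became 847 with an overlap of 50% of the smaller region and 641 with the lists of the rule at equal length. The share open at E7.5 became 47.7% with readout lists at equal length. The difference of E7.2 to E6.0 ran from -0.914 to 34.7 points when 1 replicate was left out, and was -0.914 without the second replicate of E7.2. With the replicate block it was 16.9 points, as without it (exact p of 0.500 over 2 pairs, the smallest possible). The labels give no shared litter or day for a number, and 2 pairs cannot show one. With the lists of the rule at equal length, the Wnt3KO H3K27ac difference became 3.90 points and the H3K4me3 share at 72 h 4.06%. That share was 1.61% with exclusion within 1 kb. Readout lists of equal length gave Polycomb shares of 0.219% for H3K27me3 and 0.329% for Ring1b. The clustered share was 3.66% with an overlap of 50%, 3.28% with the lists of the rule at equal length, 4.90% with links of 25 kb and 13.6% with links of 100 kb. Fewer regions and shorter links lengthen gaps by construction, and for the other values the cause was not tested.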
